A study of Mus musculus with 4 samples.

Results

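The genes described here encode milk proteins, measured by RNA-seq in medullary thymic epithelial cells (mTECs). They are the 9 genes *Csn1s1*, *Csn1s2a*, *Csn1s2b*, *Csn2*, *Csn3*, *Wap*, *Lalba*, *Ltf* and *Glycam1*, picked by symbol from the 23337 genes of the deposited count table. The members were named by what their products are, though earlier results of these data were known when they were chosen. Of the 9 genes, 7 passed the filter on low counts and were tested among 18547 genes, and *Wap* and *Lalba* did not. The mTECs were sorted from the thymus of C57BL/6 mice 4 weeks old, as cells negative for CD45 and Ly51 that carried EpCAM and bound the lectin UEA-1. There were 2 libraries labelled wild type (WT) and 2 labelled Sirt6-/-, called *Sirt6* cKO here, in which the loxP-flanked *Sirt6* alleles were to be removed by Cre driven from the *Foxn1* promoter. *Foxn1* is active in thymic epithelium of both cortex and medulla, so this Cre is not specific to mTECs. WT mice lacked the Cre transgene and were littermates or matched in age. Each group was described as independent parallel samples, with no statement of how many mice went into a library.

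Milk proteins are made by the alveolar epithelium of the lactating mammary gland, where prolactin signals through its receptor and JAK2 to STAT5, which acts on casein genes together with the glucocorticoid receptor. The caseins form micelles that carry calcium phosphate, and their genes lie side by side in 1 cluster. mTECs express many genes of other organs, called tissue-restricted antigens, and present them to developing thymocytes, and casein genes are a classical example of such a cluster. *Wap* (whey acidic protein) and *Lalba* (alpha-lactalbumin, the regulatory subunit of lactose synthase) encode whey proteins. *Ltf* (lactotransferrin, which binds iron) is also made by glandular epithelia and by neutrophils, and *Glycam1*, a mucin-like glycoprotein, is found both in milk and on the high endothelial venules of lymph nodes.

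The libraries held between 61102704 and 65907745 counts, and the normalized values below are CPM, counts scaled to library size with TMM factors. Where a group is given by a pair of values, replicate 1 comes first, and where 4 values follow each other the pair of WT libraries precedes the pair labelled *Sirt6* cKO. *Sirt6* itself had 622 and 755 counts in WT, against 882 and 835 in *Sirt6* cKO (log2 fold change 0.37, standard error 0.32, adjusted p = 0.80 by edgeR). The targeted gene was thus not lower in these counts, which are per gene and do not show single exons. The authors reported that *Sirt6* was inactivated, from a western blot of cultured thymic epithelial cells and quantitative PCR of sorted cells. For these 4 libraries, each direction given below rests on the labels. Low counts often came in steps, since 34.6% of the 10104 values from 1 to 40 were multiples of 4, where even spacing gives 25%, so 1 count need not be 1 read. *Aire* (log2 fold change 0.65, standard error 0.18), *Cd80* (0.94, standard error 0.20) and *Epcam* (0.48, standard error 0.14) were higher and *Ccl21a*, a chemokine of an mTEC subset, was lower (-2.37, standard error 0.46) in the libraries labelled *Sirt6* cKO. These were the 4 of 11 mTEC markers that passed an unadjusted p of 0.05, which 8.58% of all genes tested passed. Of 5 markers of cortical epithelium, *Ly75* passed it (1.14, standard error 0.36), while the other 4 lay between -0.41 for *Prss16* and 0.24 for *Cxcl12*, 3 of them below 0. *Epcam* missed this threshold at 0.44 without WT 1, 0.49 without WT 2 and 0.38 without *Sirt6* cKO 2, and *Ly75* at 1.01 without WT 1, 1.25 without WT 2 and 0.60 without *Sirt6* cKO 1. In a bulk library, fewer cells of a type and less RNA per cell cannot be told apart.

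The 5 casein genes span 266.5 kb of chromosome 5 (GRCm38, GENCODE M21). *Csn1s1* (87666208 to 87682578, plus strand) and *Csn2* (87692624 to 87699630, minus strand) lie tail to tail with 10045 bases between them. Beyond them follow *Csn1s2a* (87774567 to 87788797), *Csn1s2b* (87808082 to 87824426) and *Csn3* (87925579 to 87932665), all on the plus strand. The other members lie apart, *Ltf* on chromosome 9 (111019271 to 111042767, plus strand), *Wap* on chromosome 11 (6635482 to 6638637, minus strand), and *Lalba* (98480400 to 98482721) and *Glycam1* (103562759 to 103565081) on the minus strand of chromosome 15. All 9 are protein-coding, and none shares an exonic base with another annotated gene.

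The sequences before the starts of the casein genes are shown because the direct neighbours *Csn1s1* and *Csn2* differed widely in level. RefSeq windows of 250 bases before the start (GRCm38.p6) were matched for 7 of the 9 members, with *Csn1s2b* and *Csn3* not among them. In each window 2 patterns of STAT5-type sites were searched, TTCNNNGAA and the wider TTCNNNNGAA. Each pattern reads the same on both strands, so 1 search covers both, and no 2 matches overlapped. Capitals mark the matches, and all sequences are written in the direction of transcription of their gene. The *Csn1s1* window (chr5:87665958-87666207, plus strand) held 1 match to TTCNNNGAA, whose first base lay 100 bases before the start, and the *Csn1s2a* window (chr5:87774200-87774449, plus strand) held none.
Csn1s1: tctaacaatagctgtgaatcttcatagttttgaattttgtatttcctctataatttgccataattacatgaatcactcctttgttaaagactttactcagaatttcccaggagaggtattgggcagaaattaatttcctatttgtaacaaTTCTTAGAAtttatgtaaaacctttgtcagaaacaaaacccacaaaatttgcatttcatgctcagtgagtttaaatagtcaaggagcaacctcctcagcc
Csn1s2a: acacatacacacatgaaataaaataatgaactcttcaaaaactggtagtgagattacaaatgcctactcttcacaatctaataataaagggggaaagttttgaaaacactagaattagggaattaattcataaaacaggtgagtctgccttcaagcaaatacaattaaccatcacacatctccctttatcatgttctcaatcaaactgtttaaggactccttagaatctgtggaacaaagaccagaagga
The *Csn2* window (chr5:87699426-87699675, minus strand) held a match to each pattern, and 205 of its 250 bases lie in the first exon of a longer *Csn2* transcript of GENCODE, so 30 bases around each match are given. The first bases of these matches lay 93 bases (chr5:87699499-87699528) and 140 bases (chr5:87699546-87699575) before the start. *Glycam1* held 1 match, 145 bases before its start (chr15:103565207-103565236, minus strand).
Csn2, 93 bases before: tcacgtagacTTCTTGGAAttgaagggact
Csn2, 140 bases before: accctagaatTTCTTGGGAAagacaataga
Glycam1: gccaactcatTTCCCAGAAacaccaattcc
The windows of *Ltf*, *Wap* and *Lalba* held neither pattern. Of all 32851 windows of this length, 7.02% held TTCNNNGAA, 5.85% held TTCNNNNGAA and 12.4% held at least 1 of them. The matches are descriptions of these letters, and binding of any factor was not measured.

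*Csn2* (beta-casein) and *Ltf* were the abundant members, and the other 7 lay far below them. To compare genes with each other, TPM values were used, a transcript abundance scaled for both transcript length and library. *Csn2* had a TPM of 534.8 and 573.0 in WT, against 1073 and 816.4 in *Sirt6* cKO, which ranked it 230th, 211th, 92nd and 134th of the 23337 genes. *Ltf* had a TPM of 533.2, 464.3, 414.7 and 379.4 in the same order. The levels of the pair were alike in WT 1, where *Csn2* was 1.003 times *Ltf*, and stood apart in *Sirt6* cKO 1, where it was 2.59 times *Ltf*. In WT the mean TPM was 554 ± 27.1 (SD, n = 2) for *Csn2* and 499 ± 48.7 (SD, n = 2) for *Ltf*.

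*Csn1s1* (an alpha-casein) came next, with a TPM of 2.99 and 10.4 in WT, against 6.05 and 3.19 in *Sirt6* cKO. *Csn1s2b* ranged from 0.864 to 3.76, *Csn3* (kappa-casein, which stabilizes the micelle) from 0.953 to 4.01 and *Csn1s2a* from 0.907 to 1.88 TPM. From *Csn1s1* downward, the range of each gene overlapped that of the next in the order. *Glycam1* reached at most 0.982 TPM, *Lalba* 0.703 and *Wap* 0.573, each with at least 1 library at 0. *Csn2* made up 98.9% and 97.2% of the summed casein TPM in WT, and 98.6% and 98.8% in *Sirt6* cKO. The ratio of *Csn2* to its neighbour *Csn1s1* was 179 and 55.3 in WT, against 177 and 256 in *Sirt6* cKO. The ratio of *Sirt6* cKO 1 thus lay between those of the WT libraries, and that of *Sirt6* cKO 2 lay above both. Together the 9 genes took between 0.0873% and 0.105% of the counts of a library.

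**Figure D1:**
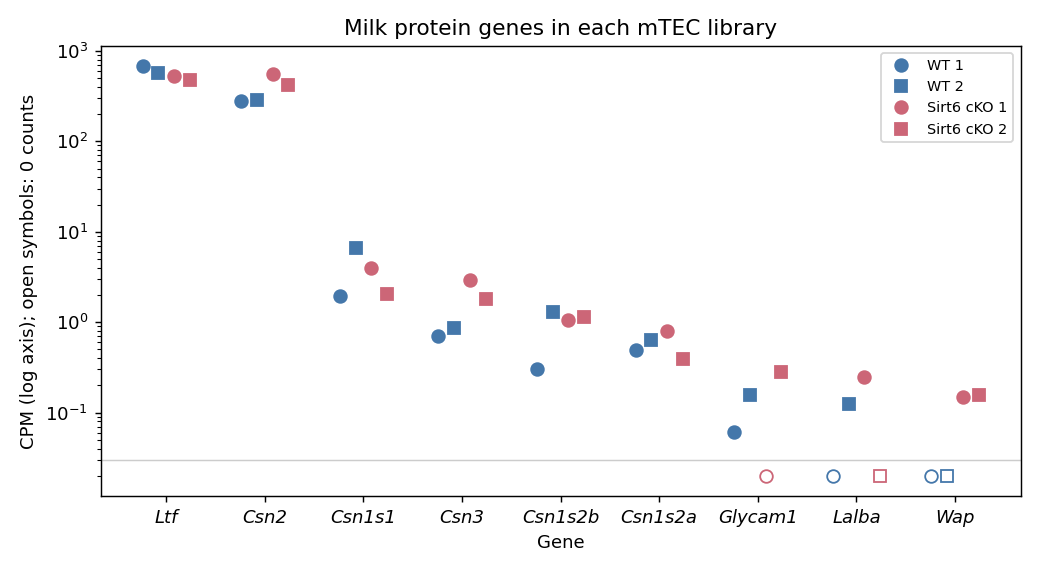
CPM of each of the 9 milk protein genes in each of the 4 libraries, on a log axis, with genes ordered by their mean and symbols drawn open below the line for 0 counts. *Ltf* and *Csn2* lie above 276 CPM in every library and the other 7 genes at 6.58 CPM or less.

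The comparison of libraries labelled *Sirt6* cKO with WT concerns tissue-restricted genes of mTECs, and *Sirt6* itself was not lower in these counts. Among the 7 tested members, 1 (*Csn2*) was higher and 0 were lower when the quasi-likelihood p of edgeR was held to 0.05 without adjustment. Of all genes tested, 5.27% were higher and 3.32% lower at this threshold. None of the 7 (0 genes) reached an adjusted p of 0.05, which 0.00539% of all genes passed, and 0 passed it with DESeq2, where 1.83% did. The groups did not overlap for *Csn2* and *Csn3*, which lay higher, and for *Ltf*, which lay lower, against 21.6% of all genes lying higher without overlap and 20.3% lying lower. The median log2 fold change was 0.36 over the 7 genes and -0.0047 over all genes tested. The middle gene of the 7 was *Glycam1*, with 18 counts at most, so this median rests on a gene of few counts. The members that passed the filter are not all members, since the least abundant were left out by it.

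*Csn2* was 1.72-fold higher in the libraries labelled *Sirt6* cKO. Its counts were 18083 and 18310 in WT, against 33283 and 26746 in *Sirt6* cKO, and the CPM values were 276, 288, 551 and 417. The WT libraries lay close together, at 282 ± 8.11 CPM (SD, n = 2), and the *Sirt6* cKO libraries were spread more widely, at 484 ± 95.1 CPM (SD, n = 2), with no overlap between the groups. The log2 fold change was 0.78 (standard error 0.19), with an unadjusted p = 0.00834 and an adjusted p = 0.54 by edgeR. DESeq2 gave an adjusted p = 0.071. For 2 libraries against 2, the smallest p that an exact two-sided permutation test allows is 0.333. With 1 library left out the log2 fold change ran from 0.57 without *Sirt6* cKO 1 to 0.95 without *Sirt6* cKO 2. Only 0.13% of the 50-base words of the longest *Csn2* transcript occur in other genes.

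The mTEC genes *Aire* and *Cd80* lay higher in the same pair of libraries. *Aire*, the factor that drives a large part of tissue-restricted expression in mTECs, had 351 and 429 CPM in WT, against 560 and 664 in *Sirt6* cKO, so it was highest in *Sirt6* cKO 2, whereas *Csn2* was highest in *Sirt6* cKO 1. Without WT 1 or without *Sirt6* cKO 2, *Aire* no longer passed the unadjusted p (log2 fold changes of 0.49 and 0.50). *Cd80*, a costimulatory ligand that marks mature mTECs, had 68.9, 70.2, 123 and 144 CPM. *Fezf2*, a second regulator of such genes, had 672 and 690 CPM in WT, against 386 and 803 in *Sirt6* cKO (log2 fold change -0.20, standard error 0.35). It was thus lowest in the library where *Csn2* was highest. Without *Sirt6* cKO 2, *Fezf2* passed the unadjusted p at -0.83, and it lay at 0.24 without *Sirt6* cKO 1. The part of these genes in the *Csn2* result was not tested.

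The other caseins were low and varied between replicates. *Csn3* had 46 and 55 counts in WT, against 178 and 116 in *Sirt6* cKO, or 0.784 ± 0.114 CPM (SD, n = 2) in WT against 2.38 ± 0.807 CPM (SD, n = 2). The groups did not overlap, and the log2 fold change was 1.60 (standard error 0.86, unadjusted p = 0.118, adjusted p = 0.67 by edgeR). With the authors' filter of TPM over 0.1 in every library, *Csn3* passed the unadjusted p (p = 0.0465 by edgeR, log2 fold change 1.60). For *Csn3*, 2.41% of the 50-base words of its longest transcript occur in other genes.

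*Csn1s1* had 128 and 419 counts in WT, against 238 and 133 in *Sirt6* cKO. WT 2 was the highest library and WT 1 the lowest, a 3.37-fold difference in CPM between replicates of 1 group. The log2 fold change of -0.50 (standard error 0.78) became 0.62 without WT 2 and -1.16 without WT 1. *Csn1s2b* had 20, 82, 64 and 73 counts, with WT 1 alone low and the WT replicates 4.22-fold apart, and its log2 fold change of 0.46 (standard error 1.19) became -0.25 without WT 1 and 1.84 without WT 2. *Csn1s2a* had 32, 40, 48 and 25 counts, with both *Sirt6* cKO libraries outside the WT range on opposite sides. Its log2 fold change was 0.08 (standard error 1.24) and turned to -0.01 with library size alone or upper quartile scaling, to -0.11 without WT 1 and to -0.51 without *Sirt6* cKO 1. The summed level of *Csn1s1*, *Csn1s2a*, *Csn1s2b* and *Csn3* was 3.45 and 9.37 CPM in WT, against 8.75 and 5.41 in *Sirt6* cKO, so the groups overlapped.

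The whey protein genes were at the limit of detection. *Wap* had 0 counts in both WT libraries and 9 and 10 counts in *Sirt6* cKO. Set against a floor of 3 counts per WT library it was at least 3.28-fold higher, but against a floor of 12 counts (3 steps of 4), chosen after the data were seen, all 4 libraries lay under the floor. It did not pass the filter of edgeR. *Wap* missed the unadjusted p with edgeR without that filter and with DESeq2, and passed it with limma on log2(TPM + 1), which understates the change of low genes, and on log2(TPM + 0.1). *Lalba* had 0 and 8 counts in WT, against 15 and 0 in *Sirt6* cKO. Each group of *Lalba* held 1 library at 0 and 1 above it, so no difference was detectable at this depth. These limits cover counting error only.

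*Ltf* was the member with the highest mean CPM. It had 44138 and 36320 counts in WT, against 31502 and 30430 in *Sirt6* cKO, or 623 ± 73.2 CPM (SD, n = 2) in WT against 498 ± 33.6 CPM (SD, n = 2). The groups did not overlap, and the log2 fold change was -0.32 (standard error 0.16, unadjusted p = 0.102, adjusted p = 0.65 by edgeR). Scaled by library size alone it was -0.41 and passed the unadjusted p of edgeR, beside a median of -0.09 over all genes under that scaling.

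Neutrophil markers were present beside *Ltf*, although CD45+ cells were to be removed by the sort. Of 14 listed neutrophil markers 13 are in the table, and each of these had counts in every library, so none was at 0. Their summed level was 844 and 544 CPM in WT, against 782 and 560 in *Sirt6* cKO, an order that differs from that of *Ltf* (674, 571, 522 and 474 CPM). *Ngp*, a secondary granule protein like lactotransferrin, had 487, 306, 456 and 316 CPM in the same order of libraries. *Mpo*, of primary granules, had 164, 99.3, 125 and 129 CPM. Of the 13 markers 4 had a log2 fold change above 0 and 9 below, with a median of -0.05 and *S100a9* highest at 0.68. *Mmp8*, a collagenase of neutrophil granules, was the 1 of 13 that passed the unadjusted p (log2 fold change -1.07, standard error 0.30), against 8.58% of all genes, with 18.4, 21.6, 9.54 and 9.53 CPM. It missed the threshold without WT 2 (-0.95), without *Sirt6* cKO 1 (-1.07) and without *Sirt6* cKO 2 (-1.08). The part of neutrophil RNA in the *Ltf* level was not tested. The 9 markers of CD45+ cells summed to between 652 and 1012 CPM, with 3 above 0 and 6 below 0 in log2 fold change. Of these *Adgre1* (listed as *Emr1*), a macrophage marker, was lower at 17.5, 12.5, 5.35 and 8.42 CPM (log2 fold change -1.12, standard error 0.40), and passed the unadjusted p, but not without WT 1 (-0.88), without *Sirt6* cKO 1 (-0.83) or with the replicate block (-1.14). Of the 9, 3 lay lower without overlap and 0 higher, beside 20.3% and 21.6% of all genes. Besides *Adgre1* these were *Cd4* and *Ms4a1*, at -0.44 and -0.33. The 3 above 0 were *Ptprc* at 0.27, *Cd3e* at 0.55 and *Rag1* at 0.75, each with overlapping groups. The part of such cells in the *Ltf* result was not tested.

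*Glycam1* had 4 and 10 counts in WT, against 0 and 18 in *Sirt6* cKO, so the *Sirt6* cKO libraries held both the lowest and the highest value. Its log2 fold change of 0.36 (standard error 2.31) became -1.13 with the replicate number as a block and -0.18 without WT 1. The 11 markers of high endothelial venules and endothelium summed to 166 and 116 CPM in WT, against 108 and 128 in *Sirt6* cKO. Of these *Chst4*, a sulfotransferase of high endothelial venules, had 156, 0, 42 and 16 counts, and *Madcam1*, an adhesion molecule of mucosal venules, had 1344, 587, 593 and 620. *Fut7* had 58, 85, 40 and 107 counts, and *Ackr1* (listed as *Darc*) had 364, 166, 376 and 314. The log2 fold change was -0.61 for *Madcam1*, 0.07 for *Fut7* and 0.45 for *Ackr1*. *Chst4* was the 1 defining marker at 0 in any library. Of the 11 markers 4 had a log2 fold change above 0 and 7 below, from -1.33 for *Chst4* to 0.89 for *Cdh5*, and 0 passed the unadjusted p in edgeR. The part of endothelial RNA in *Glycam1* was not tested.

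**Figure D2:**
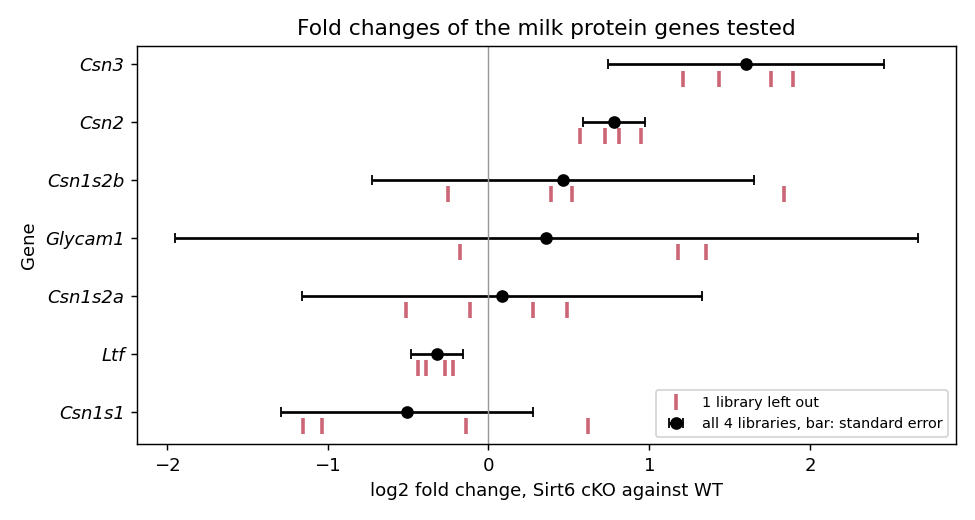
log2 fold change of *Sirt6* cKO against WT for the 7 milk protein genes tested, with the standard error as a bar and, below each, the values with 1 library left out. *Csn2*, *Csn3* and *Ltf* keep their side of 0 with any library left out, whereas *Csn1s1*, *Csn1s2a*, *Csn1s2b* and *Glycam1* cross it.

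The pattern of *Ltf* over the 4 libraries, as deviations of log2 CPM from its mean, was 0.28 and 0.04 in WT, against -0.09 and -0.23 in *Sirt6* cKO. The 5 tested genes nearest to it, by the root mean square difference of these deviations over 4 libraries, were *Ccdc28a* (0.022), *Mrpl44*, *Cops6*, *Procr* and *0610007P22Rik* (0.026), and 381 genes lay within 0.1. For *Csn2*, added after its values were seen, the deviations were -0.41, -0.35, 0.58 and 0.18, and the nearest genes were *4930583H14Rik* (0.013), *Utp6*, *Zscan20*, *Agpat3* and *Map3k4* (0.026), with 96 genes within 0.1. No other milk protein gene was among these, and with 4 libraries many genes share any such pattern.

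The genes around the caseins included lower but no higher ones past the unadjusted p. GENCODE lists 49 other genes within 500 kb of the caseins, and 19 of them are in the count table. Of these 19, 9 were tested, 0 were higher and 2 were lower at the unadjusted p (5.27% and 3.32% of all genes), with a median log2 fold change of -0.25. Among those 2, *Ugt2a3* passed the filter on low counts only through WT, the group where it is high, which favours a lower call. *Ugt2a1*, also tested, entered in the same way. With TPM over 0.1 in all libraries, 0 of 7 tested were higher and 1 was lower (5.67% and 3.91% of all genes). Most of the expressed neighbours encode enzymes that attach sulfate or glucuronic acid to small molecules, or secreted proteins of enamel and of salivary and lacrimal glands.

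*Sult1d1*, a cytosolic sulfotransferase, had 1571 and 1118 counts in WT, against 569 and 811 in *Sirt6* cKO, with no overlap between the groups (log2 fold change -0.91, standard error 0.34, unadjusted p = 0.0413, adjusted p = 0.56 by edgeR). The related *Sult1b1* had 936, 1486, 748 and 755 counts (log2 fold change -0.64, standard error 0.36), and passed the unadjusted p at -0.98 without WT 1. *Sult1e1*, an estrogen sulfotransferase, had 764, 883, 548 and 851 counts, with the groups overlapping and a log2 fold change of -0.19 (standard error 0.35) that lay at 0.058 without *Sirt6* cKO 1. The 3 genes lie between 161 and 108 kb from the start of *Csn2*. Without WT 1 or either *Sirt6* cKO library, *Sult1d1* no longer passed the unadjusted p, at -0.69, -0.71 and -1.15.

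*Ugt2a3*, a glucuronosyltransferase, had 40 and 41 counts in WT, against 0 in both *Sirt6* cKO libraries, so it was at least 13.0-fold lower against a floor of 3 counts per library and at least 3.25-fold lower against a floor of 12. Its unadjusted p was 0.0185 by edgeR, and it missed the threshold with any 1 library left out. Counts of *Ugt2a2* (99, 0, 0 and 0) and *Ugt2a1* (46, 27, 0 and 8) are uncertain because the genes share 1771 exonic bases on 1 strand. *Gm7337*, a pseudogene between *Csn1s2b* and *Csn3*, had 263 counts in WT 1 and 0 in the other libraries. The neighbours that passed the unadjusted p were all lower, 2 of 9 tested with 4 libraries, 1 of 9 without WT 1, 3 of 12 without WT 2, 0 of 12 without *Sirt6* cKO 1 and 0 of 11 without *Sirt6* cKO 2. In these fits 3.32%, 3.44%, 2.6%, 1.61% and 4.26% of all genes were lower at that threshold.

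*Odam* lies inside the cluster, between *Csn1s2b* and *Csn3*, and *Amtn* lies beyond *Csn3*. These genes, whose products are found in maturing enamel, differed widely in level. *Odam* had 22, 33, 17 and 28 counts, and *Amtn* had 2594 and 1106 in WT, against 1355 and 1679 in *Sirt6* cKO. For both genes the groups overlapped. The salivary and lacrimal gland genes *Smr3a* (12, 8, 8 and 8 counts), *Smr2* (12, 0, 0 and 21) and *Prol1* (42, 164, 146 and 60) were low, and *Smr3a* shares exonic bases with another gene of its strand. The 7 neighbours with fewer than 10 counts in every library included 3 with none at all.

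**Figure D3:**
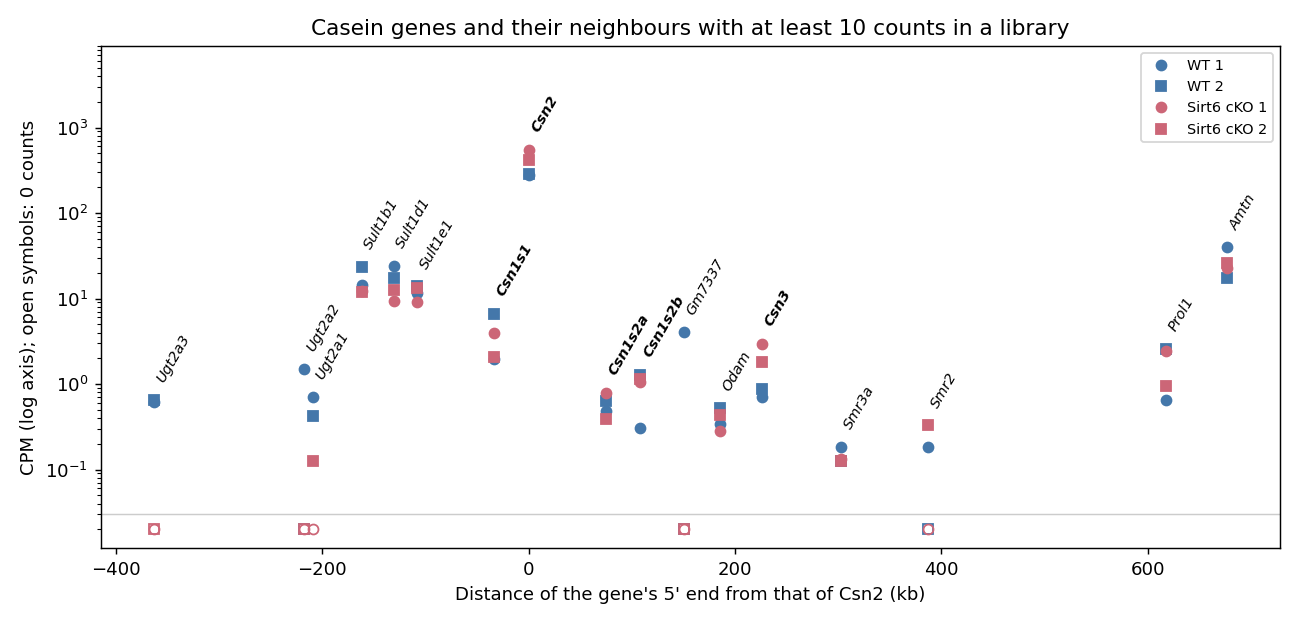
CPM on a log axis in each library for the 5 casein genes (bold) and the neighbours with at least 10 counts in a library, placed by the distance of their start from that of *Csn2* in kb along chromosome 5. *Csn2* stands alone above 276 CPM, with *Csn1s1* at 6.58 CPM or less only 33.4 kb away.

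Genes of lactogenic signalling were measured next to the milk proteins. Of the 20 listed genes, from the prolactin receptor to its downstream factors, all 20 were tested, 1 was higher and 0 were lower at the unadjusted p (5.27% and 3.32% of all genes), with a median log2 fold change of 0.08. That gene was *Stat5a*, the main STAT5 factor of the mammary gland. *Stat5a* had 185 and 188 CPM in WT, against 290 and 303 in *Sirt6* cKO, or 186 ± 1.89 CPM (SD, n = 2) against 297 ± 9.62 CPM (SD, n = 2). Its log2 fold change was 0.67 (standard error 0.16, unadjusted p = 0.00657, adjusted p = 0.54 by edgeR). Of the 20 genes, 5 lay higher and 4 lower without overlap, beside 21.6% and 20.3% of all genes, and *Stat5a* was among the 5. *Stat5b*, its close paralog, lay at 0.36 (standard error 0.21) with 3003, 2934, 3595 and 3727 counts.

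*Prlr*, the prolactin receptor, had 31.5 and 43.1 CPM in WT, against 32.4 and 45.1 in *Sirt6* cKO, so the groups overlapped. Its log2 fold change of 0.06 (standard error 0.30) was -0.02 with upper quartile scaling, -0.03 with library size alone, -0.17 without WT 1 and -0.22 without *Sirt6* cKO 2. *Elf5*, a factor of the alveolar epithelium, had 110 and 734 counts in WT, against 156 and 150 in *Sirt6* cKO. WT 2 was thus the highest library in *Elf5*, as it was in *Csn1s1*. In *Csn1s2b* it lay near both *Sirt6* cKO libraries, at 0.306, 1.29, 1.06 and 1.14 CPM. A link between *Elf5* and these genes was not tested. The log2 fold change of *Elf5* was -1.42 (standard error 0.93), -2.25 without WT 1, where it passed the unadjusted p, and 0.55 without WT 2. Without WT 1, 2 of the 20 genes were higher and 1 was lower at the unadjusted p, beside 5.71% and 3.44% of all genes in that fit.

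Of 26 further genes of milk and of the lactating gland, all 26 were tested, and 2 were higher and 2 lower at the unadjusted p, beside 5.27% and 3.32% of all genes, with a median log2 fold change of 0.04. *Lpo* (lactoperoxidase, an antibacterial enzyme of milk and saliva) had 330 and 383 CPM in WT, against 552 and 603 in *Sirt6* cKO (log2 fold change 0.70, standard error 0.16). *Slc34a2*, a sodium phosphate cotransporter of secretory epithelia, had 42.0, 41.0, 88.8 and 71.0 CPM (log2 fold change 0.95, standard error 0.23), and DESeq2 gave it an adjusted p = 0.0334. It missed the unadjusted p of edgeR without *Sirt6* cKO 1, at 0.78.

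*Saa3*, an acute phase protein that is secreted into colostrum, had 130 and 158 CPM in WT, against 80.8 and 89.7 in *Sirt6* cKO (log2 fold change -0.75, standard error 0.20). It missed the threshold without WT 2 (-0.61) and without *Sirt6* cKO 1 (-0.68). *Spp1* (osteopontin) had 270, 189, 122 and 164 CPM (log2 fold change -0.68, standard error 0.26), and missed the threshold without WT 1 (-0.42), without *Sirt6* cKO 1 (-0.48) and with the replicate block (-0.67). *B4galt1*, the galactosyltransferase that forms lactose synthase with alpha-lactalbumin, was at 0.47 (standard error 0.30) with 5970, 4503, 8331 and 5578 counts, and passed the unadjusted p without *Sirt6* cKO 2, at 0.75. Of the 26 genes, 7 lay higher and 7 lower without overlap, beside 21.6% and 20.3% of all genes. *Lpo*, *Slc34a2*, *Saa3* and *Spp1* were among them, and each of these had an adjusted p of 0.54 or above by edgeR. Without *Sirt6* cKO 1, 2 of the 26 were higher and 0 lower, and in that fit the shares over all genes were also smaller, at 2.16% and 1.61%.

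**Figure D4:**
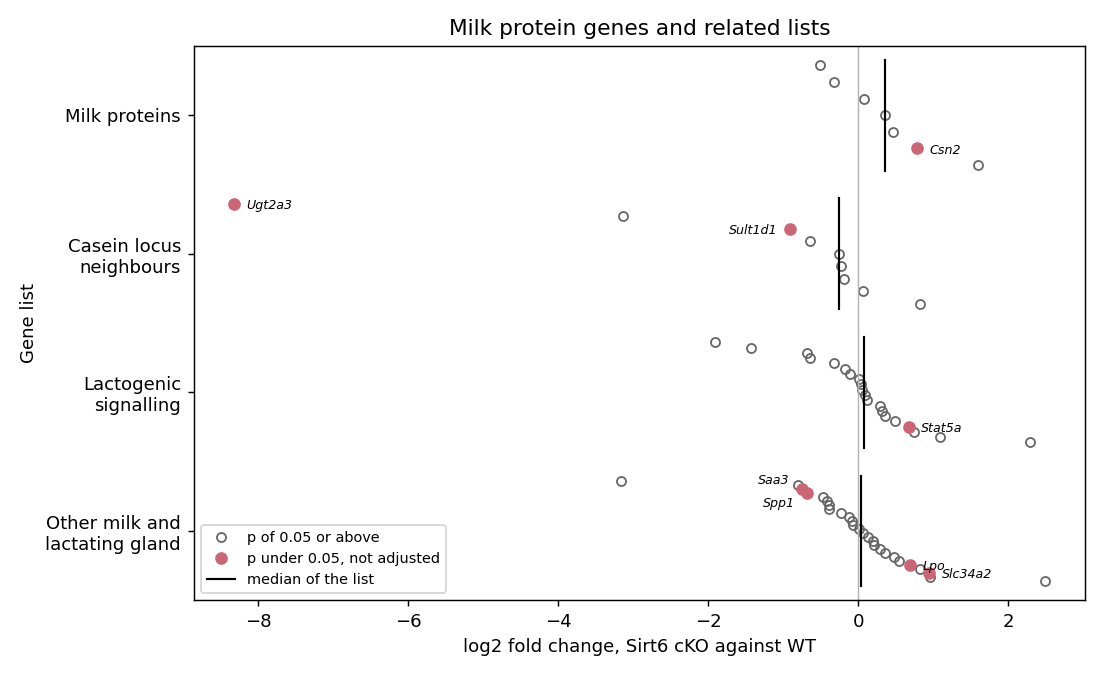
log2 fold change of *Sirt6* cKO against WT for each tested gene of the milk protein list and the 3 related lists, with filled points for an unadjusted p under 0.05 and a bar at each median. The medians are 0.36, -0.25, 0.08 and 0.04 from top to bottom, and the fitted value of *Ugt2a3*, with 0 counts in 1 group, depends on the prior count.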

How the data were processed

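RNA-seq of sorted mTECs was analysed in 2 WT and 2 *Sirt6* cKO libraries. After adapter trimming, the authors mapped reads to mm10 using HISAT2 2.1.0 and obtained gene values using StringTie 1.3.3 (versions per the submitters' processing notes), while the annotation and the use of strand are not given in the sources used here. They deposited raw counts per gene, without normalization, and TPM values whose unnamed total line was left out. Counts were tested with edgeR 4.0.16 in R 4.3.3 (TMM, filterByExpr with minimum count 10 and total 15, glmQLFit, glmQLFTest), with Benjamini-Hochberg adjustment over the 18547 genes tested. The procedure was tested on simulated counts. p-values measure only the spread between these samples, which may be technical. The members, lists and tests were chosen with earlier results of these data known.

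Named were the 9 members, casein neighbours with at least 10 counts in a library, *Sirt6*, list genes past an unadjusted p of 0.05 with *Prlr*, *Stat5a*, *Stat5b*, *Elf5* and *B4galt1*, *Aire* and *Fezf2*, neutrophil and venule markers, and the 5 genes most like *Ltf*, the member with the highest mean CPM. *Cd80*, *Epcam*, *Ccl21a*, *Ly75*, *Prss16*, *Cxcl12*, *S100a9*, *Cdh5*, *Fut7*, *Ackr1*, *Adgre1*, *Cd4*, *Ms4a1*, *Ptprc*, *Cd3e* and *Rag1* were added after their values were seen. A group at 3 or fewer counts per library was set to 3 counts. Alternatives were DESeq2 1.42.0, upper quartile or library size scaling, no filter, TPM over 0.1 in all libraries, a replicate block, limma 3.58.1 on log2(TPM + 1) and log2(TPM + 0.1), and each library left out, where a lone library is assumed to vary like the other group. No 2 libraries agreed within sampling noise (chi-square per gene of 166 or more). Figures were drawn with Python 3.11.15 and matplotlib 3.10.9.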

Additional observations from a re-analysis of the deposited data

How the results depend on the processing

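The number of milk protein genes past the unadjusted p was 1 of 7 tested (8.58% of all genes). It became 2 of 7 with library size alone (*Csn2* and *Ltf*, 8.41% of all genes). With TPM over 0.1 in all libraries it was 2 of 6 (*Csn2* and *Csn3*, 9.59%). With limma on log2 TPM it was 2 of 9 (*Csn2* and *Wap*) at either pseudocount, 1 (8.63%) or 0.1 (8.67%). With each library left out in turn it stayed at 1. *Csn2* kept its direction and passed the unadjusted p under all 12 alternatives, between 0.57 and 0.95 on the log2 scale, with adjusted p from 0.071 with DESeq2 to 0.9996 with a library left out. The number of casein neighbours, 2 of 9 tested (8.58% of all genes), was 4 of 16 with DESeq2 (10.2%) and 1 of 7 with TPM over 0.1 (9.59%). Lactogenic genes stayed at 1 under each alternative on all 4 libraries. Other milk genes, 4 of 26, became 6 with DESeq2 (10.2%) and with limma at either pseudocount (8.63% and 8.67%). They became 3 with the replicate block (6.18%). The cause of these moves was not tested. Reversed signs were -0.0064 for *Csn1s2a* with upper quartile and -0.0079 with library size scaling, -0.018 and -0.033 for *Prlr* in the same order, and -0.47 for *Glycam1* with limma on log2(TPM + 0.1). With a library left out, *Csn1s1* ran from -1.16 to 0.62, *Csn1s2a* from -0.51 to 0.49, *Csn1s2b* from -0.25 to 1.84, *Glycam1* from -0.18 to 1.35, *Prlr* from -0.22 to 0.30, *Elf5* from -2.25 to 0.55, *Sult1e1* from -0.51 to 0.058 and *Fezf2* from -0.83 to 0.24.

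The replicate numbers are shared names, and 2 numbers do not show a pairing, with a correlation of -0.05 between the deviations of WT 1 and *Sirt6* cKO 1 over genes. With the replicate number as a block, the counts were 1 milk protein gene, 0 casein neighbours, 1 lactogenic gene and 3 other milk genes. In that fit 6.18% of all genes passed. *Glycam1* turned to -1.13 and *Csn2* stood at 0.77, past the unadjusted p. Depth limits *Wap*, *Lalba* and *Glycam1*, whose counts were 18 or fewer in every library.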
